A study of Rattus norvegicus with 6 samples.

Results

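Transcripts of the oxidative phosphorylation system were followed in regenerated sciatic nerve of male SD rats of WT genotype, all with a surgical defect of the sciatic nerve. In the 3 libraries of the NC group the wound was closed with no treatment, and in the 3 libraries of the GDNF-Gel/HA-Mg group a nerve conduit of that name had been implanted in the defect (implant libraries below). The labels give neither the age of the animals, nor the time after surgery, nor whether each library came from a separate animal, so the p-values measure the spread between these libraries, which may be technical. Members were the genes whose symbol begins with Nduf, Uqcr, Cox4 to Cox8, Atp5 or Mt-, or is Sdha, Sdhb, Sdhc or Sdhd, with a summed count of at least 30 over the 6 libraries. This gave 101 of the 23091 entries of the count table, 88 nuclear entries from 82 symbols and 13 mitochondrially encoded genes. Of the 43 entries with such a symbol that fell below the minimum, 35 were listed at 0 in every library and 8 had counts. The only entries of Cox8a and Cox7a2 were listed at 0, and those of Atp5me, Atp5f1e, Atp5md and Uqcr11 had summed counts of 6, 15, 5.63 and 24, so these 6 subunits are not described. All 101 members passed the filter on low counts that left 13999 genes for testing.

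Oxidative phosphorylation passes electrons from NADH through complex I, or from succinate through complex II, to complex III, cytochrome c and complex IV, which reduces oxygen. Complexes I, III and IV pump protons across the inner mitochondrial membrane, and complex V uses the gradient to make ATP. Complex II is encoded in the nucleus alone, while the other complexes combine nuclear subunits with subunits encoded by mitochondrial DNA, whose messenger RNAs are cut from long polycistronic transcripts. In peripheral nerve, mitochondria are found in axons, Schwann cells, blood vessels and invading immune cells, but the RNA of an axon's mitochondria and of its glia is read together in a bulk library. Fewer cells of a type and less RNA per cell cannot be told apart in such data.

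The libraries held 15897850 to 18491379 counts. The haemoglobin share of the NC libraries was 1.19%, 1.02% and 25.2% (NC 1, 2 and 3), and that of the implant libraries 8.08%, 12.9% and 14.9% (implant 1, 2 and 3), an order kept below. NC 3 therefore stood apart from the other NC libraries, and its scaling factor was 0.769 against 0.963 to 1.17 elsewhere. Levels are given below as TMM-scaled CPM, counts scaled to a common library size, and are compared between libraries of the same gene and not between genes, since no transcript lengths were used.

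The implant and NC libraries showed no difference in oxidative phosphorylation transcripts beyond the spread between libraries. By edgeR's quasi-likelihood test with Benjamini-Hochberg adjustment, 0 of the 101 members were called, against 0 of 13999 genes (0%). DESeq2 called 11 of 13956 genes (0.0788%) and limma-voom 0 genes, and neither called a member. At an unadjusted edgeR p under 0.05 there was 1 member, against 241 genes (1.72%). The 44 positive and 57 negative log2 fold changes (implant minus NC) had a median of -0.02, and over all genes 53% were negative with a median of -0.01. The approximate 95% interval of the fold change excluded a 2-fold difference in either direction for 94 of the 101 members (93.1%), against 72.4% of all genes. The 7 members it did not exclude were Cox6a2, Cox7a1, the pseudogene Ndufv3-ps1, 1 of the entries each of Ndufa10l1 and Cox5a, and 2 of the 3 entries of Atp5mpl.

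**Figure D1:**
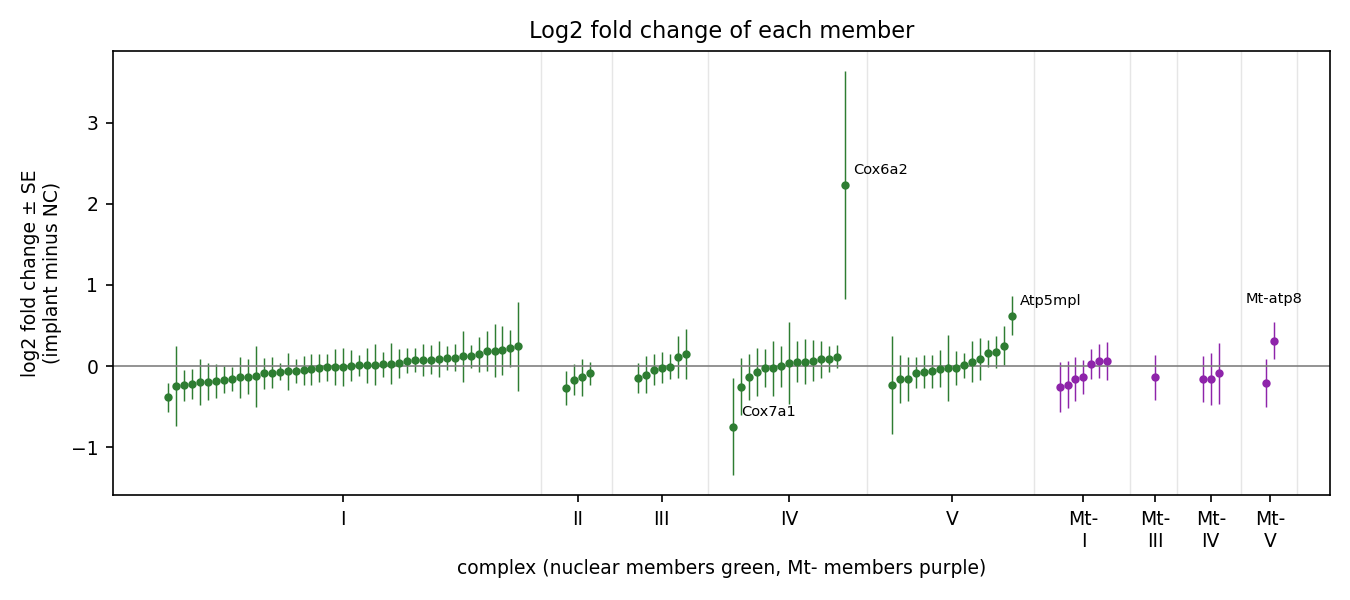
Log2 fold change (implant minus NC, y axis) of 100 members ordered within each complex (x axis), with bars of ± 1 standard error. Nuclear members are green and Mt- members purple, Ndufa4l2, which belongs to no complex, is left out, and Cox6a2 at 2.23 and Cox7a1 at -0.75 lie farthest from 0.

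The 13 Mt- genes together made up 6.56%, 8.18% and 6.84% of all NC counts against 6.72%, 6.88% and 6.44% of all implant counts. The highest share was in NC 2 and the groups overlapped (7.19% ± 0.863 against 6.68% ± 0.226, SD, n = 3 each). Nuclear members took 0.562%, 0.517% and 0.554% of the NC counts and 0.507%, 0.582% and 0.530% of the implant counts. On this scale the nuclear sum varied only 1.15-fold over the 6 libraries. Per nuclear count the NC libraries had 11.7, 15.8 and 12.3 Mt- counts and the implant libraries 13.2, 11.8 and 12.2, a ratio that needs no scaling between libraries. The means of 13.3 ± 2.22 and 12.4 ± 0.742 differed by -0.10 on the log2 scale, and without NC 2 the difference was 0.05. NC 2 was also the library with the highest summed level of 14 myelin markers, 41350 CPM against 1481 to 20950 in the others. The part of that marker difference in the ratio was not tested.

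Within the system the implant and NC libraries overlapped in the summed level of every complex. Nuclear complex I members (45 entries, with 7 assembly factors) summed to 1460, 1512 and 2028 CPM in the NC libraries and 1464, 1763 and 1607 CPM in the implant libraries. Complex II, succinate dehydrogenase, summed to 393, 417 and 578 CPM against 365, 424 and 445 CPM. The nuclear part of complex III, the cytochrome bc1 complex, gave 485, 466 and 715 CPM against 480, 604 and 543 CPM. NC 3 was the highest library each time, and the lowest was NC 1 for complex I, implant 1 for complex II and NC 2 for complex III. Nuclear members of complex IV, cytochrome c oxidase, summed to 744, 686 and 1130 CPM against 739, 978 and 844 CPM. Those of complex V, ATP synthase, summed to 1707, 1666 and 2746 CPM against 1731, 2069 and 2056 CPM. The log2 difference of the group means ran from -0.17 for complex II to 0.00115 for complex IV. Mt- subunits gave differences of -0.18 for complex I, -0.14 for complex III, -0.12 for complex IV and -0.19 for complex V (log2 of the means of the sums), again with overlap in each.

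**Figure D2:**
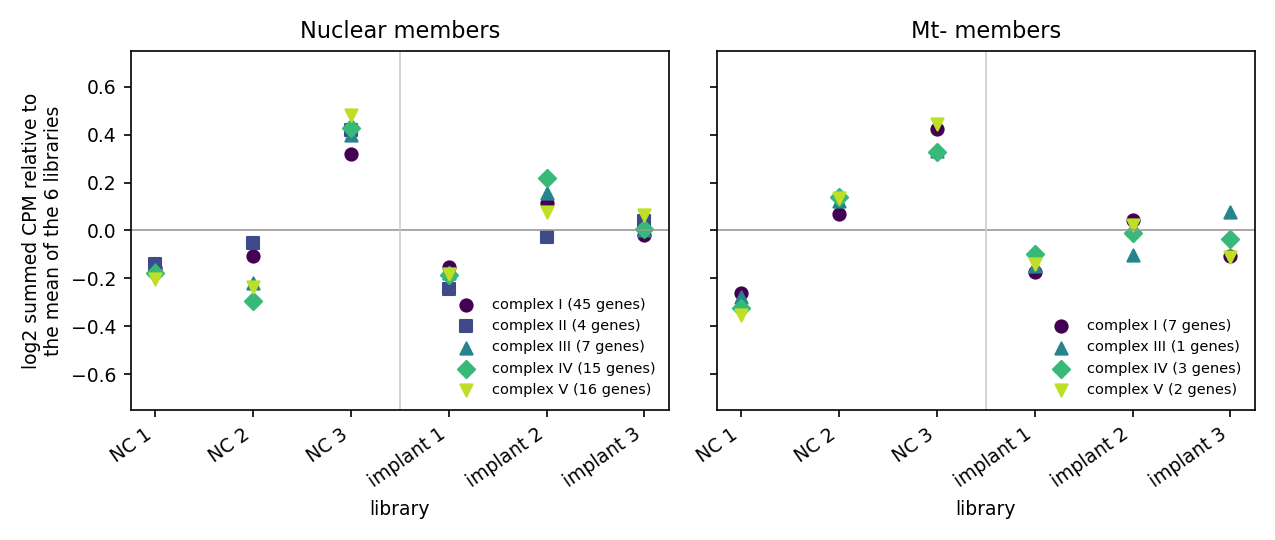
Summed TMM-scaled CPM of the members of each complex, as log2 relative to the mean of the 6 libraries (y axis), in each library (x axis), with nuclear members on the left and Mt- members on the right. NC 3 is the highest point for every complex on this scale, and on total counts the nuclear sum varies only 1.15-fold.

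The height of NC 3 was shared by most members but depended on the scaling. With TMM scaling, 56 of the 88 nuclear members (63.6%) and 9 of the 13 Mt- members (69.2%) had their highest level in NC 3, against 24.8% of all genes tested. On total counts without a scaling factor these were 12 nuclear members and 1 Mt- member, against 6.71% of all genes. On total counts outside the haemoglobin genes they were 36 nuclear and 9 Mt- members, against 15.2% of all genes. Implant 2 was the next most frequent highest library for nuclear members on the TMM scale, with 20 (22.7%) against 15.1% of all genes. On total counts it was the most frequent, with 46 of the 88, against 1432 of 13999 genes. On the TMM scale NC 3 also had the highest summed levels of adipocyte, macrophage and endothelial markers. Marker sums were not read on the other scalings. The 12 adipocyte markers summed to 5367, 2255 and 15390 CPM in the NC libraries and 2892, 5411 and 3739 CPM in the implant libraries. The 10 macrophage markers summed to 1284, 1073 and 2174 CPM against 1164, 1531 and 1677 CPM. The 9 endothelial markers found summed to 1417, 972 and 2134 CPM against 1575, 1719 and 1412 CPM. None of these markers was called, and their part in the height of NC 3 was not tested. The brown fat markers, 5 of 6 found, summed to 15.0, 6.01 and 29.7 CPM in the NC libraries and 6.32, 11.5 and 6.60 CPM in the implant libraries, again highest in NC 3. Most of this sum was Cidea, a lipid droplet protein, at 14.5, 6.01 and 28.8 CPM against 6.09, 11.3 and 6.55 CPM. Ucp1, the uncoupling protein that defines these mitochondrion-rich fat cells, was at 0.0519 CPM in NC 1 and listed at 0 in the other 5 libraries, and Zic1 and Elovl3 were listed at 0 in all 6. The part of this list in the height of NC 3 was not tested.

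**Figure D3:**
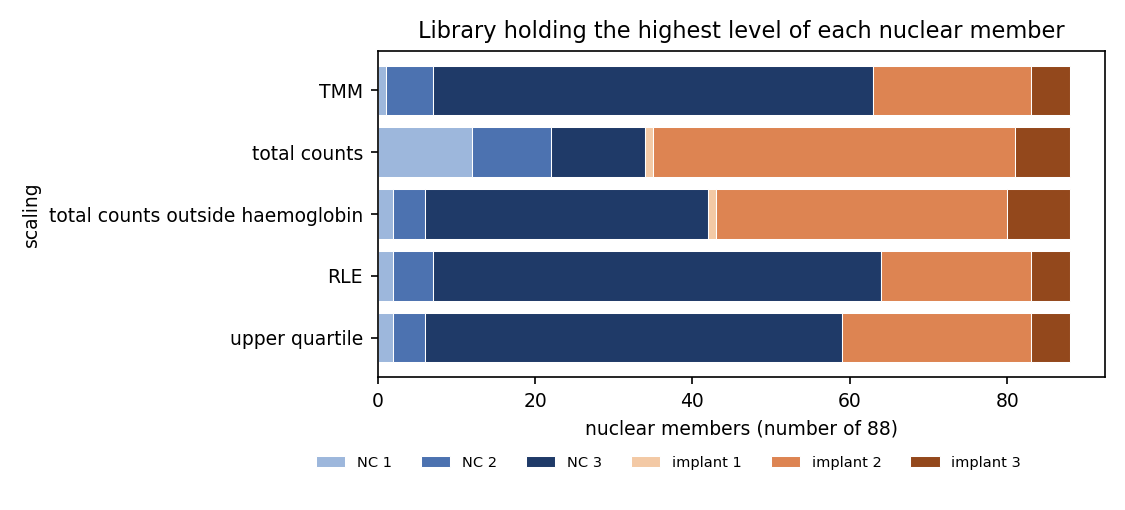
Number of the 88 nuclear members (x axis) whose highest level fell in each library (colours), under 5 ways of scaling the libraries (y axis). NC 3 holds 56 nuclear members with TMM scaling and 12 on total counts, where implant 2 holds 46.

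Leaving out NC 3 turned the direction of the nuclear members. Without it 85 of the 101 members had a positive log2 fold change, the nuclear median was 0.19 and the Mt- median 0.03, and 0 members were called by edgeR. Without implant 2, by contrast, 82 members were negative and the nuclear median was -0.10. Over all genes tested the median was -0.02 without NC 3 and -0.009 without implant 2. The direction of the list as a whole thus depended on the libraries kept.

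In complex I the catalytic subunits carry the FMN site and the iron-sulphur clusters. Those described here overlapped between the groups. Ndufs1, the largest iron-sulphur subunit, was at 78.6, 84.3 and 122 CPM against 87.3, 86.2 and 95.8 CPM. Ndufv1, which binds FMN and NADH, was at 67.5, 67.4 and 96.4 CPM against 62.1, 78.5 and 77.0 CPM. Both were highest in NC 3, as were Ndufs3 and Ndufv2. Ndufs7, which carries the last iron-sulphur cluster before quinone, was at 30.9, 34.6 and 42.9 CPM against 30.2, 38.5 and 45.5 CPM. Implant 3 was its highest library, unlike any other catalytic nuclear subunit. Ndufs8 was highest in implant 2, at 26.5 CPM, and lowest in NC 2, at 20.3 CPM.

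Among the accessory subunits of complex I, Ndufa5 varied least, 1.16-fold over the 6 libraries between 45.1 and 52.1 CPM. Ndufa1, a small membrane subunit, varied 2.19-fold, at 35.4, 26.2 and 56.4 CPM in the NC libraries and 36, 57.4 and 41.1 CPM in the implant libraries. NC 3 and implant 2 were its high libraries and the groups overlapped. Ndufa3 had a log2 fold change of 0.22 ± 0.23 and Ndufv3 of -0.19 ± 0.21 (SE), neither called. The assembly factors Ndufaf1 to Ndufaf7, which build the complex and do not stay in it, had 2 positive and 5 negative fold changes with a median of -0.13. Ndufaf4 was at 10.7, 14.5 and 15.3 CPM against 11.6, 10.9 and 12.3 CPM, with NC 1 the lowest library.

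Complex II, which is also the succinate dehydrogenase of the citric acid cycle, had 4 negative log2 fold changes among its 4 subunits, from -0.27 to -0.09, none of them called. NC 3 was the highest library for each of the 4. Sdha, the flavoprotein that oxidises succinate, was at 164, 173 and 240 CPM in the NC libraries and 151, 179 and 184 CPM in the implant libraries. Sdhb, the iron-sulphur subunit, was at 64.3, 76.9 and 85.3 CPM against 66.0, 71.6 and 74.9 CPM. Sdhc, a membrane anchor, was at 79.4, 90.7 and 131 CPM against 79.3, 79.0 and 91.0 CPM, and had the largest difference, -0.27 ± 0.21 (SE). All 4 overlapped between the groups, and without NC 3 the differences were 0.02 for Sdha, 0.00532 for Sdhb, -0.03 for Sdhc and 0.09 for Sdhd.

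In complex III, Uqcrfs1, the Rieske iron-sulphur protein, was at 78.9, 73.5 and 123 CPM in the NC libraries and 76.5, 92.9 and 86.4 CPM in the implant libraries. The core protein Uqcrc2 was at 120, 137 and 181 CPM against 121, 139 and 136 CPM, a log2 fold change of -0.15 ± 0.18. NC 3 was the highest library for both, and both overlapped. Uqcrh, the hinge protein at cytochrome c1, had the widest range of the complex, 2.10-fold, at 57.2, 47.5 and 99.7 CPM against 63.0, 91.6 and 71.9 CPM.

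In complex V, Atp5f1b, the catalytic beta subunit, was at 564, 550 and 1034 CPM in the NC libraries and 556, 627 and 739 CPM in the implant libraries. Its partner Atp5f1a was at 350, 358 and 513 CPM against 350, 386 and 433 CPM. Both were highest in NC 3 and second highest in implant 3. Atp5po, the stalk subunit that joins the catalytic head to the membrane part, was at 84.7, 85.1 and 117 CPM against 80.4, 107 and 83.6 CPM. Atp5if1, the inhibitor that blocks ATP hydrolysis when the gradient collapses, varied 2.96-fold, at 56.5, 73.8 and 167 CPM against 90.7, 99.1 and 103 CPM. Per 100 counts of Atp5f1b the NC libraries had 10.0, 13.4 and 16.2 counts of Atp5if1 and the implant libraries 16.3, 15.8 and 13.9, which overlapped. Of 3 entries of Atp5mpl, a small subunit of the membrane part, ENSRNOG00000066701 was the only member with all implant libraries above all NC libraries. It stood at 2.60, 2.83 and 3.33 CPM in the NC libraries and 3.98, 5.11 and 4.36 CPM in the implant libraries. The log2 fold change was 0.62 ± 0.24 (SE) with an edgeR adjusted p of 1. In all, 2 of the 101 members (1.98%) did not overlap between the groups, against 796 of 13999 genes (5.69%), of which 2.81% had the implant libraries above and 2.88% below. The entry with the most counts, ENSRNOG00000070574, gave 0.18 ± 0.20 and overlapped. Counts shared between near-identical copies can be split in more than 1 way, so the entries of Atp5mpl, Cox5a, Cox6b1, Ndufa10l1 and Ndufs5 are uncertain one by one.

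Core and accessory subunits were compared by their highest library on the TMM scale. Of the 16 nuclear core subunits, 14 were highest in NC 3 and 1 in implant 2. Of the 61 accessory subunits, 38 were highest in NC 3 and 17 (27.9%) in implant 2. Over all genes tested these shares were 24.8% and 15.1%. Implant 2 was the highest library for the accessory subunits Ndufa1, Ndufb7, Ndufs6, Uqcr10, Cox6c, Cox7c and Atp5mk. As the median log2 deviation from each gene's mean, the core subunits stood at 0.00191 in implant 2 and the accessory subunits at 0.21. The accessory median minus the core median was 0.01, -0.13 and -0.04 in the NC libraries and 0.02, 0.21 and -0.10 with the implant. Implant 2 was thus the high library and NC 2 the low one, and the groups overlapped (-0.05 ± 0.07 against 0.04 ± 0.16, SD, n = 3 each).

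With TMM scaling, 11 of the 13 mitochondrially encoded genes were lowest in NC 1, against 1980 of the 13999 genes tested. As a share of total counts their sum was lowest in implant 3, at 6.44%, against 6.56% in NC 1. Mt-co1, the catalytic subunit of complex IV, was at 17610, 24830 and 27610 CPM in the NC libraries and 21000, 21560 and 23330 CPM in the implant libraries. Mt-cyb, the cytochrome b of complex III, was at 4921, 6502 and 7509 CPM against 5384, 5551 and 6288 CPM. For both, the implant libraries lay inside the NC range. Mt-nd2, a proton-pumping subunit of complex I, had the lowest log2 fold change of the 13, -0.26 ± 0.31 (SE), at 3068, 3982 and 5835 CPM against 3178, 3844 and 3768 CPM. Mt-nd1, Mt-nd4 and Mt-nd5 gave -0.16, -0.23 and -0.14, and Mt-co2 and Mt-co3 gave -0.16 each. The median over the 13 genes was -0.14, with 4 positive and 9 negative, and 0 were called. Reads from copies of mitochondrial DNA in the nuclear genome could also be counted here, and how the authors treated such reads is not stated in the labels.

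The 4 positive Mt- genes were Mt-atp8, Mt-nd3, Mt-nd4l and Mt-nd6, and these were also the 4 with their highest level in implant 2. Mt-atp8, which encodes a short subunit of complex V, was at 198, 245 and 266 CPM in the NC libraries and 272, 376 and 232 CPM in the implant libraries. Its log2 fold change was 0.31 ± 0.23 (SE), while Mt-atp6, which lies on the same messenger RNA and overlaps it, gave -0.21 ± 0.30. Per 100 counts of Mt-atp6 the NC libraries had 4.31, 3.78 and 3.3 counts of Mt-atp8 and the implant libraries 5.16, 6.43 and 4.26. NC 3 was the lowest library and implant 2 the highest, a 1.95-fold range, and implant 3 fell below NC 1. Mt-nd4l and Mt-nd4 are joined on 1 messenger RNA in the same way. Their ratio per 100 counts was 5.62, 5.39 and 4.73 against 6.06, 7.44 and 5.35, again lowest in NC 3 and highest in implant 2. Mt-nd3, which has a messenger RNA of its own, stood per 100 counts of Mt-co3 at 10.3, 8.54 and 6.66 against 9.02, 11.4 and 8.05. Mt-nd6 is encoded on the opposite strand to the other 12, and the kit does not mark the strand. Its counts per 100 of Mt-nd5 were 12.1, 12.8 and 10.1 against 11.9, 15.0 and 11.9. All 4 ratios were lowest in NC 3 and highest in implant 2, and all 4 overlapped between the groups. With TMM scaling each numerator was highest in implant 2 and each denominator in NC 3. The shared pattern thus largely follows from the choice of genes. Mt-co2 per 100 counts of Mt-co1 stood at 35.6, 31.9 and 32.1 against 32.3, 36.4 and 25.6, highest in implant 2 but lowest in implant 3. The 4 ratios share libraries and denominators of nearby genes, and no test was made of them.

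**Figure D4:**
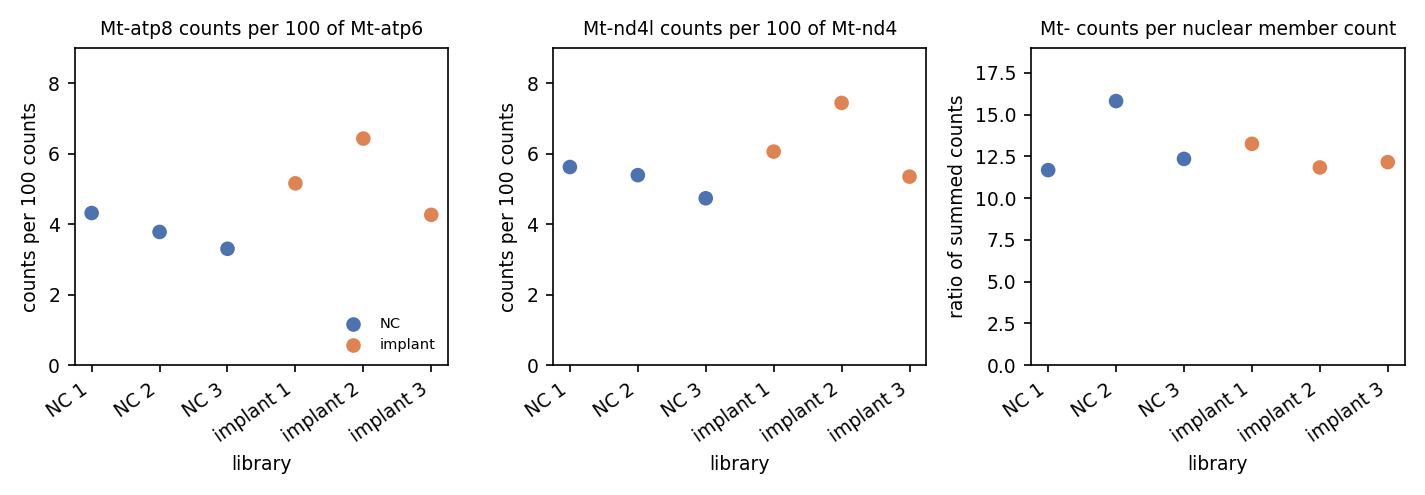
Counts of Mt-atp8 per 100 of Mt-atp6 and of Mt-nd4l per 100 of Mt-nd4, gene pairs that share a messenger RNA, and Mt- counts per nuclear member count (y axes), in each library (x axis, NC blue, implant orange). The first 2 ratios are lowest in NC 3 and highest in implant 2, and the last is highest in NC 2 at 15.8.

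Complex IV has subunits with alternative forms for different tissues. Cox6a2, the form of heart and skeletal muscle, varied 67-fold over the 6 libraries, more than any other member, while Cox6a1, the form of most other tissues, varied 1.78-fold. Cox6a2 was at 0.415, 2.02 and 5.86 CPM in the NC libraries and 0.468, 10.3 and 27.8 CPM in the implant libraries, from 8, 35 and 81 counts and 8, 189 and 472 counts. Implant 2 and implant 3 were the highest libraries, but implant 1 was as low as NC 1. The log2 fold change was 2.23 ± 1.40 (SE) with an edgeR adjusted p of 1. It was 0.97 without implant 3 and 3.41 without NC 3. Per 100 counts of Cox6a1 the NC libraries had 0.433, 1.86 and 3.43 counts of Cox6a2 and the implant libraries 0.399, 7.995 and 22.7.

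Cox6a2 moved with skeletal muscle transcripts. The skeletal muscle markers summed to 45.4, 466 and 1600 CPM in the NC libraries and 119, 1971 and 9829 CPM in the implant libraries, and none was at 0 in all libraries. Ckm, the muscle creatine kinase, was at 2.03, 33.6 and 189 CPM against 10.3, 218 and 1041 CPM. Acta1, skeletal actin, was at 5.87, 106 and 352 CPM against 20.8, 468 and 2095 CPM. The order of the libraries in Cox6a2, from NC 1 through implant 1, NC 2, NC 3 and implant 2 to implant 3, was exactly that of 9 of the 19 muscle markers tested (47.4%), of 0 of the 100 other members and of 47 of 13999 genes (0.336%). Cox6a2 had 8 counts in both NC 1 and implant 1, so the order of these libraries was set by the scaling alone. The 47 genes include Cox6a2 itself and the 9 markers. All 19 muscle markers had a positive log2 fold change and 0 were called by edgeR. The part of muscle RNA in the Cox6a2 values was not tested. Cox7a1, the muscle form of another subunit, did not have that order. It was at 0.467, 1.68 and 0.868 CPM against 0.820, 0.435 and 0.531 CPM, highest in NC 2, with a log2 fold change of -0.75 ± 0.60 (SE) that was -0.15 without NC 2.

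**Figure D5:**
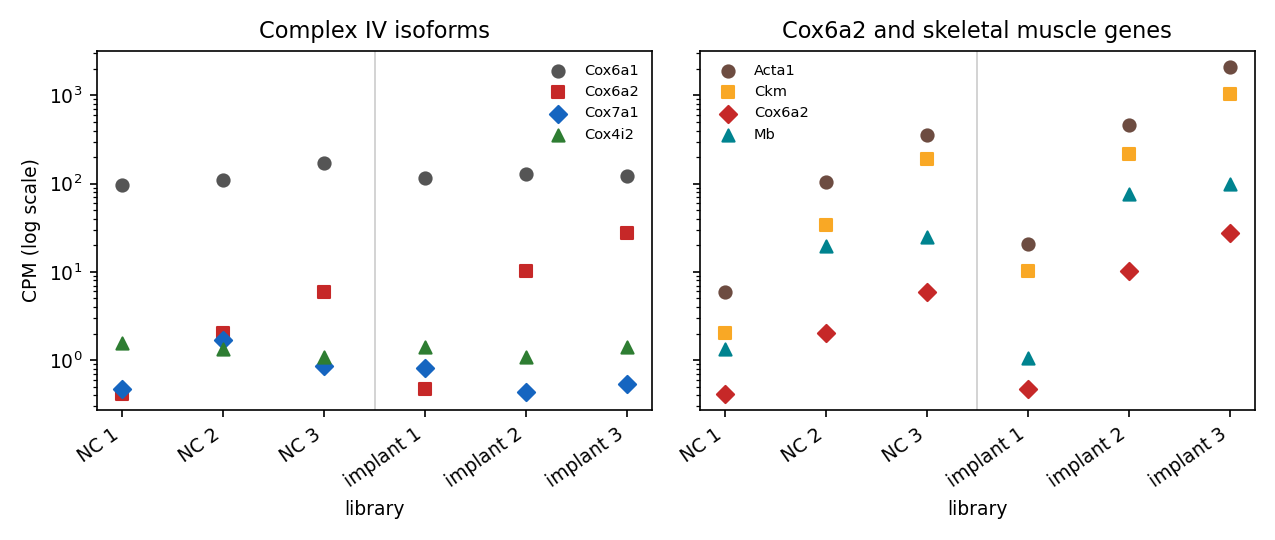
Level (TMM-scaled CPM, log axis) in each of the 6 libraries of Cox6a1, Cox6a2, Cox7a1 and Cox4i2 (left) and of Cox6a2 with the muscle genes Acta1, Ckm and Mb (right). Cox6a2 runs from 0.415 CPM in NC 1 to 27.8 CPM in implant 3 alongside the muscle genes, while Cox6a1 stays between 96.0 and 171 CPM.

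The hypoxia-responsive forms showed no such range. Cox4i2, an oxygen-sensitive alternative to Cox4i1, was at 1.56, 1.33 and 1.08 CPM in the NC libraries and 1.41, 1.09 and 1.42 CPM in the implant libraries. Cox4i1 was at 157, 122 and 249 CPM against 139, 197 and 164 CPM. Cox4i2 was lowest in NC 3, where Cox4i1 was highest. Ndufa4l2, a paralogue of Ndufa4 that is induced under low oxygen, was at 4.67, 5.43 and 5.86 CPM against 6.56, 4.999 and 7.08 CPM, and Ndufa4 at 26.7, 23.8 and 41.4 CPM against 27.2, 38.2 and 29.9 CPM. Neither pair was called. Cox7b had the widest range among the other members of complex IV apart from Cox6a2, Cox7a1 and the minor Cox5a entry, 2.34-fold, from 59.3 CPM in NC 2 to 139 CPM in NC 3.

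Promoter windows were read for the nuclear members. The windows run from 250 bases before to 50 bases after the gene start in RefSeq annotation of GRCr8, and 72 of the 82 nuclear symbols had one. Atp5pd, Cox4i2, Cox6a1, Cox6c, Ndufa10l1, Ndufa8, Ndufaf6, Ndufv3-ps1 and Uqcrb were among those not matched. Cox6a2 is shown for its range over the libraries, Atp5po as a member whose window held both NRF1 and YY1 letters, and Ndufs7 as the core subunit that was highest in implant 3. Capitals mark CTAAAAATA (a MEF2 motif) and CAGCTG (an E-box) in Cox6a2, the 2 overlapping strands of GCATGCGC (an NRF1 motif) and AAGATGGC (a YY1 motif) in Atp5po, and AAGATGGC in Ndufs7. Each sequence is given 5′ to 3′ on the minus strand, the strand of the gene, at chr1:192219667-192219966 for Cox6a2, chr11:44657434-44657733 for Atp5po and chr7:10110449-10110748 for Ndufs7.
Cox6a2: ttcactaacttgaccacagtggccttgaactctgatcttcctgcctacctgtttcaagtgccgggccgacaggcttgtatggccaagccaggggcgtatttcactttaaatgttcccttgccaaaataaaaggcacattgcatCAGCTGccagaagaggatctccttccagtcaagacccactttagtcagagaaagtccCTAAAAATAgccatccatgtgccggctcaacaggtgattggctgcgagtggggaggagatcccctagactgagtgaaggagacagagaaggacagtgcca
Atp5po: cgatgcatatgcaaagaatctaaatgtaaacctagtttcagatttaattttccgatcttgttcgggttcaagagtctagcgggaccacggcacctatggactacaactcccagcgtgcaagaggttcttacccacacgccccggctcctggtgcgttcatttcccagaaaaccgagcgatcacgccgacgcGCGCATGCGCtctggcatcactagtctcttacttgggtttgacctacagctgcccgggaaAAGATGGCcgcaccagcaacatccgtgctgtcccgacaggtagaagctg
Ndufs7: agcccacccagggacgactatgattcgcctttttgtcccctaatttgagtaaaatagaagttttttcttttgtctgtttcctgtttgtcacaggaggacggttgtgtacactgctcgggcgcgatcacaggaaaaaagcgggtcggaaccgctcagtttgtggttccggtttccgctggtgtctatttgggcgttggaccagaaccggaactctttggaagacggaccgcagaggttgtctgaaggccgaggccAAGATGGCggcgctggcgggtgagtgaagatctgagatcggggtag
The MEF2 letters in Cox6a2 begin 50 bases before the gene start and the E-box letters 107 bases before it. The AAGATGGC letters of Atp5po and Ndufs7 begin just after the gene start, not before it. The Atp5po window also holds the E-box letters CAGCTG, which are not marked there. MEF2 and E-box binding factors are known as activators of muscle genes, and NRF1 and YY1 as factors at promoters of mitochondrial genes. The letters were chosen after the Cox6a2 window was seen, and searched on both strands.

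Of the 72 member genes with a window, 1 held CTAAAAATA (1.39%), namely Cox6a2, against 153 of 27457 genes (0.557%). The letters were chosen after that window was seen, so this match was fixed by the choice and nothing is drawn from its share. GCATGCGC was found in 9 member genes (12.5%) against 2.77% of all genes, and AAGATGGC in 14 (19.4%) against 3.62%. CCGGAAGT, a GABPA motif, was found in 7 (9.72%) against 4.20%, and TCAAGGTCA, an oestrogen-related receptor motif, in 2 (2.78%) against 0.441%. The E-box CAGCTG was in 10 (13.9%) against 16.2%, and GGGCGG, an SP1 motif, in 30 (41.7%) against 36%. The share over all genes was not limited to genes tested here and took in 33469 windows for 27457 genes, while the 72 members had 72 windows. A match describes the letters of a window and is no evidence of a bound site.

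Other genes of mitochondrial respiration were read from the same fit. The 106 entries tested include the member Atp5if1 and repeat entries of Cycs and Slc25a5. Among them 36 had a positive and 70 (66%) a negative log2 fold change, against 53% negative over all genes. The median was -0.07, and 0 were called by edgeR, voom or DESeq2. Among 34 assembly factors of the complexes, 10 were positive and 24 negative. Cox15, which makes the haem A of complex IV, was at 31.7, 37.7 and 32.03 CPM in the NC libraries and 28.9, 27.8 and 29.4 CPM in the implant libraries, with no overlap and a log2 fold change of -0.24 ± 0.12 (SE). Of 22 genes that keep, copy or transcribe mitochondrial DNA, 6 were positive and 16 negative. Mterf2, a factor of mitochondrial transcription, was at 19.4, 16.4 and 20.7 CPM against 15.9, 15.9 and 13.9 CPM, again without overlap. Tfam, which packages mitochondrial DNA and starts its transcription, was at 36.03, 33.3 and 31.2 CPM against 30.9, 32.5 and 32.3 CPM and overlapped. In the citric acid cycle 5 of 21 genes were positive and 16 negative. Pdhb, of the pyruvate dehydrogenase complex, was at 63.4, 64.0 and 85.8 CPM against 57.4, 57.0 and 62.0 CPM, with no overlap. Pdhb and Dld, which had the smallest unadjusted p of this list, were both highest in NC 3 on the TMM scale. Of 14 regulators of mitochondrial biogenesis, 7 were positive and 7 negative. The outer membrane, carrier and uncoupling list had 7 positive and 5 negative of 12 entries, and cytochrome c and c1 had 1 positive and 2 negative. Across these lists 6 of the 106 entries did not overlap (5.66%), close to the 5.69% of all genes. The directions of these lists were not read with NC 3 or any other library left out.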

How the data were processed

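Poly(A) RNA of 6 rat sciatic nerve libraries was sequenced after oligo(dT) selection with a kit that does not mark strand, per the labels' protocols. The deposited table holds the authors' estimated counts per gene, not normalized as far as the column totals show. The submitters' processing notes list DESeq2, HISAT2, Bowtie2 2.2.8 and StringTie 1.3.1. Build, annotation and counter are not given in the sources.

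Column names were matched to the sample titles. The name of the treated columns omits GDNF, and no other group of the series has the gel and HA-Mg, so they were read as the GDNF-Gel/HA-Mg libraries. Estimated counts were rounded to whole numbers, filtered with filterByExpr (13999 of 23091 entries) and scaled by TMM. All genes were fitted in edgeR 4.0.16 (R 4.3.3) by group, with the two-sided quasi-likelihood test. Calls were made where the Benjamini-Hochberg adjusted p was under 0.05. The biological coefficient of variation was 0.384. Standard errors were derived from the log2 fold change and its F statistic. Shares of counts are precise to far below the spread between libraries, for counting error only. DESeq2 1.42.0, limma-voom (limma 3.58.1), other scalings and filters, a replicate block and the omission of each library were alternatives, and the fit was tested on simulated data. No library pair agreed within sampling noise.

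Members and gene lists were chosen with earlier results of these data known, and lists are described by counts and medians without a test. Named members are all Mt- genes, the tissue isoforms, the core subunits and, per complex, the 2 with the smallest unadjusted p in each direction and the one with the widest range. Other members named for their highest or lowest library or their range were chosen after their values were seen, as were the ratios, the promoter motifs and the other pathway genes beyond the 2 with the smallest unadjusted p in each list. Promoter windows are RefSeq's, GRCr8. The values of 1 member are not reported here.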

Additional observations from a re-analysis of the deposited data

How the results depend on the processing

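Under 15 alternatives 0 members were called. DESeq2 called 11 genes in all, none of them a member, and every other alternative called 0 genes, with 163 to 574 at an unadjusted p under 0.05. The median log2 fold change of the nuclear members was between -0.10 and 0.19 with each library left out in turn, and that of the Mt- members between -0.27 and 0.03. Without NC 3 both medians were positive. The Mt- to nuclear log2 difference ranged from -0.18 to 0.05 over the same omissions and was positive only without NC 2. The number of nuclear members highest in NC 3 was 12 on total counts and 36 on total counts outside haemoglobin, and that of Mt- members was 1 on total counts, scalings chosen after seeing the data, and the cause was not tested. Of the 54 members named by the rule, 37 changed sign under at least 1 alternative, in 72 of 809 values, of which 61 came from leaving out a library, and none was called. The deviations of same-numbered libraries of the groups had correlations of 0.099, -0.718 and 0.0553. With 3 libraries per group the deviations constrain each other, so these values cannot settle whether the numbers pair the libraries. With the number as a replicate block 0 genes were called, and the medians were 0.00377 for nuclear and -0.13 for Mt- members. Cox7a1 has no value with a minimum of 1 CPM in 3 libraries. The number of libraries, not the depth, limits the precision of the well-counted members, while Cox6a2 in NC 1 and implant 1 rests on 8 counts each.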

Other observations

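Of the nuclear genes of mitochondrial energy supply that are known from muscle, 3 that were high in the same libraries as Cox6a2 are given first. Ckmt2, the mitochondrial creatine kinase of striated muscle, was listed at 0 in NC 1 and stood at 2.54 CPM in NC 2 and 4.77 CPM in NC 3, against 0.293, 34.7 and 32.8 CPM in the implant libraries. Perm1, a muscle regulator of mitochondrial genes, was at 0.156, 0.751 and 0.651 CPM against 0.176, 3.59 and 3.18 CPM. Slc25a4, the form of the ADP/ATP carrier that prevails in muscle and heart, was at 152, 156 and 173 CPM against 143, 199 and 242 CPM. Implant 2 and implant 3 were the highest libraries for these 3 genes, implant 1 was the lowest or second lowest, and edgeR's adjusted p was 1 for each. Ppargc1a, the PGC-1 alpha coactivator of mitochondrial biogenesis, did not follow that order. It was at 0.571, 4.68 and 1.23 CPM in the NC libraries and 3.04, 1.74 and 8.67 CPM in the implant libraries, high in NC 2 and implant 3. These 4 genes were named after their values were seen, and no explanation of their levels was tested.

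Cyc1, the cytochrome c1 of complex III, is outside the naming rule and was at 39.7, 44.1 and 68.03 CPM in the NC libraries and 42.1, 50.9 and 53.6 CPM in the implant libraries. Cs, citrate synthase, often used as a measure of mitochondrial content, was at 193, 155 and 295 CPM against 163, 169 and 186 CPM. Both were highest in NC 3 on the TMM scale, and neither was called.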
